A study of Mus musculus with 3 samples.

Results

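The 2 ways of inducing cellular senescence in cultured mouse biliary epithelial cells (BECs), serum depletion and glycochenodeoxycholic acid (GCDC), were set directly against each other. Each gene probe was described by the log2 ratio of its level on the serum depletion array over its level on the GCDC array, with no use of the control array for the ratio. Of 23473 gene probes on the array, 19751 had a level in both treated columns of the deposited table and were compared. A further 464 had a level in the serum depletion column only and 890 in the GCDC column only, and these gave bounds rather than ratios. The remaining 2368 had no level on either treated array.

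The serum depletion array held RNA of BECs kept in serum depleted media, the GCDC array RNA of BECs in media with 200 μM GCDC, and the control array RNA of BECs given neither. The labels give 4 to 7 days for both treatments, and the text of the study puts the arrays at 7 days. The cells were grown from the intrahepatic bile ducts of female BALB/c mice aged 8 weeks, and their usual medium held Nu-serum, EGF, insulin and forskolin. Whether the depleted medium kept these additives is not stated, so loss of serum and loss of a single factor cannot be told apart. Each array was 1 colour, with RNA pooled from 2 independent experiments, so 1 value stood for each condition. No spread between replicates could be estimated, no test was made, and every ratio below describes these arrays.

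BECs line the bile ducts and modify bile by moving water and ions. GCDC is a glycine conjugated bile acid of the liver that stresses the endoplasmic reticulum of biliary cells and liver cells when it builds up. Serum depletion takes away growth factors and nutrients and stops cells from dividing. Senescent cells stay metabolically active and release chemokines, cytokines, growth factors and proteases, known together as the senescence-associated secretory phenotype.

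Levels are fluorescence signals above the mean of the blank spots, scaled by the authors so that the median valid probe of an array is 25. The lowest level given was 1.4 in the serum depletion column and 1.2 in the GCDC column. The treated arrays were alike for most probes: 94.96% lay within 2-fold of each other, and the log2 levels correlated across probes with a Pearson coefficient of 0.984, where probes share the arrays and are not replicates. The log2 ratio had a median of -0.08 and an SD of 0.51, and its quartiles were -0.35 and 0.18. In serum depletion 429 probes (2.17% of those compared) were more than 2-fold higher than in GCDC and 566 (2.87%) were more than 2-fold lower. Counted once per gene symbol, 351 of 16529 genes (2.12%) were higher and 473 (2.86%) lower. The higher share of the probes past 2-fold, 43.1%, depended on the scaling. It was 54.6% with medians set equal over the shared probes, 57.3% with equal 75th percentiles, 53% with quantile normalization, 54.3% with cyclic loess and 70.4% with no scaling, so which inducer had more genes on its side was not settled.

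**Figure D1:**
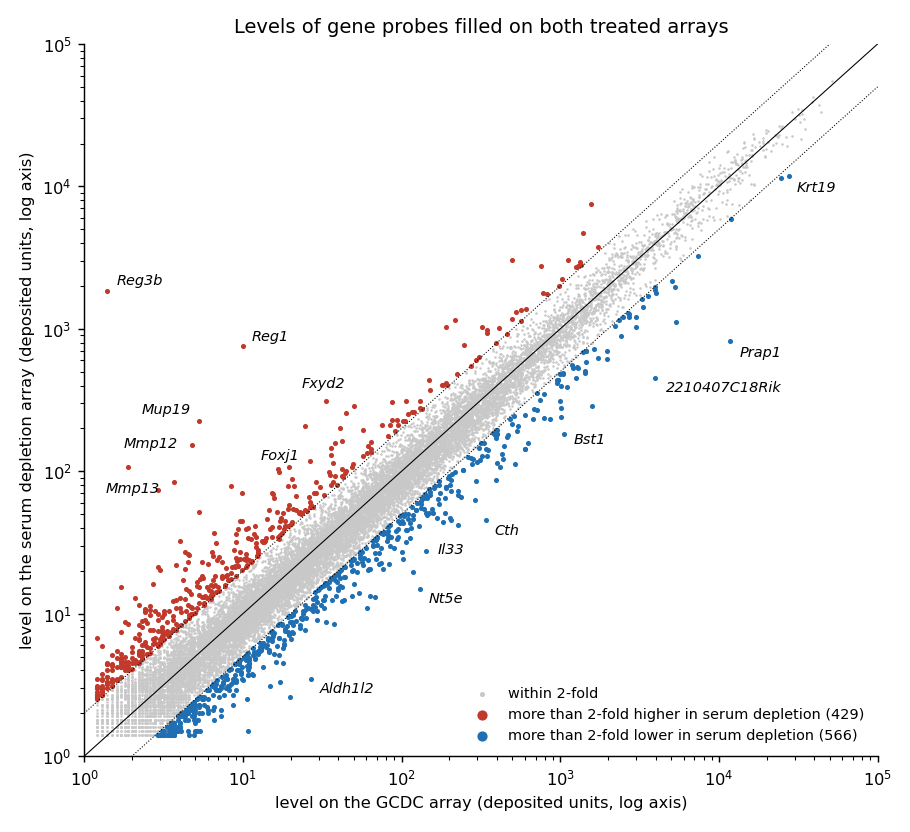
Level of each gene probe on the serum depletion array (vertical, log axis) against its level on the GCDC array (horizontal, log axis), in deposited units. Red points (429) are more than 2-fold higher in serum depletion, blue points (566) more than 2-fold lower, and dotted lines mark 2-fold. *Reg3b* and *Reg1* stand farthest above the diagonal and *Prap1* farthest below it at high level.

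The size of a difference was read against 2 limits of the arrays. At mean levels under 4 the SD of the log2 ratio was 0.60, and at levels from 100 to 1000 it was 0.44. Of 987 genes with several probes filled on both arrays, the probes differed by a median of 0.38 on the log2 scale and by more than 1 in 73 genes. Where the brighter probe of such a gene was past 2-fold (20 genes), the next probe had the same sign in 13 and was also past 2-fold in 4. Most genes named below had a single probe. On either side of the threshold stood *S100a7a* (790 in serum depletion, 394 in GCDC, log2 1.003) and *Il1r2* (6.4 and 3.2, a log2 ratio of 1), and at the lower end *Tpi1* (1967 and 3942, log2 -1.003) and *Cnr2* (5.1 and 10.2, a log2 ratio of -1).

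The integrated stress response was the list with the lowest median in serum depletion relative to GCDC. In this response, stress-sensing kinases slow general translation while the transcription factor ATF4 is made, and ATF4 raises genes for amino acid supply, serine and one-carbon metabolism and redox balance. It binds, with C/EBP partners, a short composite element. Of 30 genes of the list on the array 29 were filled on both treated arrays. None was more than 2-fold higher in serum depletion and 13 were more than 2-fold lower, against 2.86% of all genes, with a list median of -0.94 against -0.09 over all genes. Under the alternative settings the median stayed between -0.97 and -0.70 and the lower count between 5 and 14.

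Upstream stretches of 4 members are shown because their letters hold the composite element and the members lay past 2-fold. That of *Nupr1* holds it too, and its ratio lay above 0. The element was searched as TGATGNAAN on both strands, where N is any base, in RefSeq windows (GRCm38.p6) of 250 bases before to 50 bases after each gene start. Of 26 list genes with a window 8 held it (30.8%), against 1215 of all 27025 genes (4.50%). The members were listed as genes of a response that acts through this element, so their share is not independent of the list. Capitals mark each match, the strand is that of the gene, and each run reads 5′ to 3′.
Chac1, chr2:119351003-119351101, plus strand: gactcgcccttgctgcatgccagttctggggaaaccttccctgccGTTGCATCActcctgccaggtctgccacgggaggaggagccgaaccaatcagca
Vldlr, chr19:27216774-27216872, plus strand: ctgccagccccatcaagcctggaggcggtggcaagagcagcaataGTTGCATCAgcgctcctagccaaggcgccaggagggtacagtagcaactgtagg
Atf3, chr1:191183391-191183489, minus strand: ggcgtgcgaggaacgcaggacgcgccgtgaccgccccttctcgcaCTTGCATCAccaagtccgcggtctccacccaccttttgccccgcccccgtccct
Slc7a11, chr3:50443626-50443724, minus strand: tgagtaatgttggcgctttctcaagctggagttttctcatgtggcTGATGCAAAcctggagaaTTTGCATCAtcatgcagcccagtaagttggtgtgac
Nupr1, chr7:126625528-126625626, minus strand: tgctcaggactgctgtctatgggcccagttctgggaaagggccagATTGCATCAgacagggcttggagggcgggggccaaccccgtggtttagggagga
The other holders were *Asns*, *Fgf21* and *Trib3*. With the element 5 of 8 genes were more than 2-fold lower (median -1.17), and without it 5 of 17 with a window (median -0.79). This split leaves out genes with no window: *Aldh1l2*, *Cth* and *Slc7a5*, all past 2-fold, and *Slc1a5*, within it. Whether the element bears on the ratio was not tested. A match of letters is a description and does not show binding.

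The largest differences of the list were in sulphur amino acid and folate metabolism. *Cth*, the enzyme that makes cysteine from cystathionine, stood at 45.4 in serum depletion, 340 in GCDC and 78.9 in control, a log2 ratio of -2.90. *Aldh1l2*, a mitochondrial folate enzyme, stood at 3.5 in serum depletion, 26.8 in GCDC and 14.9 in control (log2 -2.94). For *Cth* the GCDC array was the one apart from control, and for *Aldh1l2* the serum depletion array was below control by more than 2-fold while the GCDC array was not past it.

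The serine and one-carbon enzymes ran the same way. *Psph* was at 533 in serum depletion and 1285 in GCDC (log2 -1.27), *Psat1* at 1429 and 3304 (log2 -1.21), *Shmt2* at 124 and 273 (log2 -1.13) and *Mthfd2* at 488 and 1044 (log2 -1.10). *Phgdh*, the first enzyme of serine synthesis, was within 2-fold at 654 and 1059 (log2 -0.70). Among regulators, *Trib3*, a pseudokinase that feeds back on ATF4, was at 22.6 in serum depletion and 74.2 in GCDC (log2 -1.72), and *Atf3* was at 89.8 and 197 (log2 -1.13). *Chac1*, which breaks down glutathione, was at 700 in serum depletion, 1961 in GCDC and 476 in control (log2 -1.49). *Vldlr*, a lipoprotein receptor, was at 68.0 in serum depletion and 227 in GCDC (log2 -1.74).

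Of the transporters of the list 2 were past 2-fold. *Slc7a5*, a carrier of large neutral amino acids, was at 86.7 in serum depletion and 205 in GCDC (log2 -1.24), and *Slc7a11*, which takes up cystine, was at 8.2 and 19 (log2 -1.21). With normexp background correction (an offset of 50, then quantile normalization) *Slc7a11* was at -0.24. Its second probe had no level on either treated array. The other transporters with a ratio were within 2-fold, at log2 -0.92 for *Slc3a2*, -0.22 for *Slc1a5* and 0.04 for *Slc6a9*. The central factors differed by less than 2-fold: *Atf4* was at 2010 in serum depletion, 3466 in GCDC and 2349 in control (log2 -0.79), and *Ddit3*, which encodes CHOP, was at 748, 1267 and 340 (log2 -0.76). *Nupr1* went the other way within 2-fold, at 12877 in serum depletion and 8648 in GCDC (log2 0.57), both far above the control level of 939. Aminoacyl-tRNA synthetases charge tRNAs with amino acids and include further ATF4 targets. Of 19 such genes 1 was more than 2-fold lower in serum depletion, against 2.86% of all genes, and the list median was -0.33. That gene was *Nars*, at 1045 in serum depletion and 2215 in GCDC (log2 -1.08).

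The unfolded protein response, which shares the kinase PERK with the stress response above, was less far apart. Of the unfolded protein response and the chaperones of the endoplasmic reticulum, 35 genes were filled on both arrays. In serum depletion none was more than 2-fold higher and 2 were more than 2-fold lower, against 2.12% and 2.86% of all genes. The list median was -0.09 against -0.09 over all genes. *Wfs1*, a membrane protein of the endoplasmic reticulum, was at 72.7 in serum depletion and 228 in GCDC (log2 -1.65), and *Herpud1*, which serves degradation of misfolded proteins, at 248 and 602 (log2 -1.28).

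Genes of glycolysis and the response to low oxygen split glucose to lactate or are raised by the HIF transcription factors. Of 29 members 9 were more than 2-fold lower in serum depletion, against 2.86% of all genes, and none was more than 2-fold higher, against 2.12%, with a median of -0.51. Under the alternative settings the median was between -0.65 and -0.26 and the lower count between 2 and 9. *Adm*, the vasodilator peptide adrenomedullin, was at 13.2 in serum depletion, 68.1 in GCDC and 53.1 in control (log2 -2.37). *Vegfa*, the endothelial growth factor, which was also a member of the stress response list, was at 49.3 in serum depletion, 144 in GCDC and 176 in control (log2 -1.54).

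For most members past 2-fold of this list, all except *Tpi1* and *Bnip3*, the GCDC level was nearer to control. *Pfkp*, a phosphofructokinase, was at 27.2 in serum depletion, 101 in GCDC and 129 in control (log2 -1.90). *Ndrg1* was at 54.7, 155 and 172 (log2 -1.50), and *Pdk1*, which holds pyruvate back from mitochondria, was at 23.7, 61.8 and 92.3 (log2 -1.38). *Bnip3*, a mitophagy receptor, differed in this, at 274 in serum depletion, 686 in GCDC and 275 in control (log2 -1.32). Several enzymes often used as reference genes were in this list: *Pgk1* was at 5887 in serum depletion and 11919 in GCDC (log2 -1.02), and *Gapdh* at 5840 and 8394 (log2 -0.52). Outside the list *Slc16a3*, the lactate exporter MCT4, was at 113 in serum depletion, 519 in GCDC and 155 in control (log2 -2.20).

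**Figure D2:**
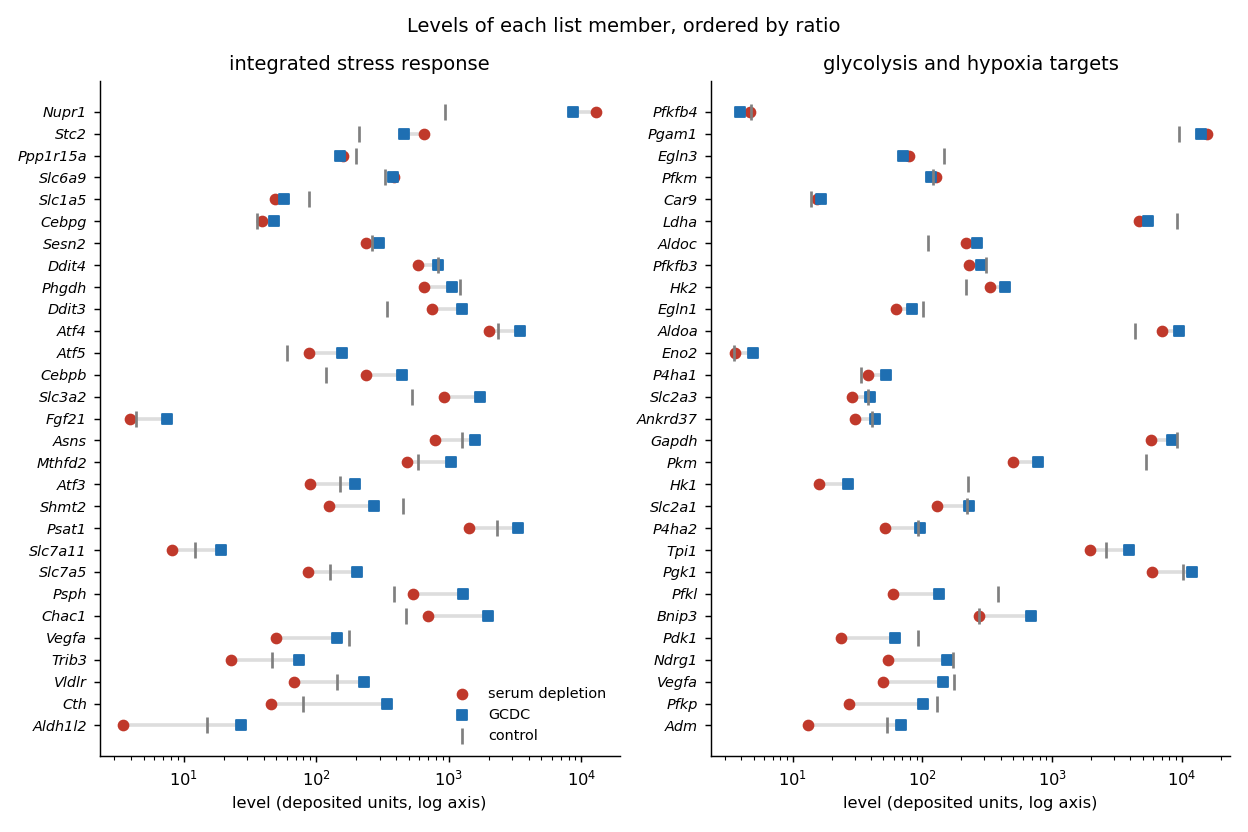
Level (log axis, deposited units) of each member of the integrated stress response list (left) and of the glycolysis and hypoxia list (right) on the serum depletion (red circle), GCDC (blue square) and control (grey bar) arrays, ordered by the ratio of serum depletion over GCDC. In each list 29 members are shown, and the red circle lies left of the blue square in 25 of them.

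Immediate early genes and the feedback phosphatases of ERK signalling, which growth factors switch on within minutes, were more than 2-fold lower in serum depletion for 7 of 36 members and higher for 1, against 2.86% and 2.12% of all genes, with a median of -0.34 (-0.78 to -0.07 under the alternative settings). *Dusp5*, a nuclear phosphatase of ERK, was at 42.1 in serum depletion, 226 in GCDC and 188 in control (log2 -2.42). *Dusp6*, its cytoplasmic relative, was at 1033, 2982 and 1441 (log2 -1.53). The AP-1 subunits *Junb* and *Fos* were at 237 and 34.6 in serum depletion, against 795 and 95.4 in GCDC (log2 -1.75 and -1.46). *Dusp2* was the exception, at 53.5 in serum depletion and 21.6 in GCDC (log2 1.31). The EGF receptor ligand *Ereg* was at 77.1 in serum depletion, 192 in GCDC and 156 in control (log2 -1.31).

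Of 41 genes of G2/M and mitosis 6 (against 2.86% of all genes) were more than 2-fold lower in serum depletion and none was more than 2-fold higher, with a median of -0.44. *Plk1*, the mitotic kinase, was at 4.6 in serum depletion, 16.2 in GCDC and 75.1 in control (log2 -1.82), and *Bub1*, of the spindle checkpoint, was at 2.3, 5.7 and 42.1 (log2 -1.31). *Mki67*, the usual marker of cycling cells, was within 2-fold at 20.1, 24.6 and 87.1. With normexp the median was -0.09 and no member lay past 2-fold. That setting adds an offset of 50 to each signal, which shrinks the ratios of genes this near the blanks. It therefore does not show how background handling bears on the list. Of 41 genes of G1/S and DNA replication 2 were more than 2-fold lower, against 2.86% of all genes, with a median of -0.08.

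The cell cycle inhibitors were within 2-fold for the usual markers of senescence: *Cdkn2b* (p15) was at 2660 in serum depletion, 1668 in GCDC and 588 in control (log2 0.67), *Cdkn2a* (p16 and p19Arf) at 44.9, 28.6 and 34.7 (log2 0.65) and *Cdkn1a* (p21) at 198, 326 and 381 (log2 -0.72). Of 31 CDK inhibitors and p53 targets 2 were more than 2-fold lower in serum depletion, against 2.86% of all genes. *Gadd45a*, a DNA damage and stress gene, had the largest difference, at 544, 1274 and 267 (log2 -1.23).

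Among genes higher in serum depletion the Reg lectins had the largest ratios on the array. These are small secreted C-type lectins of gut and pancreas that are raised in injured or inflamed epithelium, and some of them kill bacteria. *Reg3b* was at 1851 in serum depletion and 1.4 in GCDC, where it was just above the limit of validity, and it had no level on the control array. Its log2 ratio was 10.37, the largest of all probes. *Reg1* was at 756 in serum depletion, 10.0 in GCDC and 3.5 in control (log2 6.24), and *Reg3g* was at 20.4, 3.0 and 2.3 (log2 2.77). *Reg2* was at 2.4 in serum depletion and 1.6 in GCDC, and *Reg4* at 3.5 and 3.8. So 3 of the 5 members filled on both arrays were past 2-fold, all higher in serum depletion, against 2.12% of all genes. The other members filled on both were close to the floor. *Reg3a* was filled only in GCDC, at 1.3, and *Reg3d* on neither treated array. The list median was 2.77, and 0.45 to 8.31 under the alternative settings.

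Of the matrix metalloproteinases and their inhibitors, 6 of 20 were more than 2-fold higher in serum depletion, against 2.12% of all genes, and none was more than 2-fold lower. The list median was -0.02, and -0.03 to 1.13 under the alternative settings. *Mmp12*, the elastase best known from macrophages, was at 153 in serum depletion, 4.8 in GCDC and 5.2 in control (a log2 ratio of 5). *Mmp13*, a collagenase, was at 84.3, 3.7 and 3.1 (log2 4.51). Of 18 macrophage markers 12 were filled on both arrays. None of these was more than 2-fold higher in serum depletion, against 2.12% of all genes. *Vsig4* was more than 2-fold lower, against 2.86% of all genes, but near the floor, at 1.5 in serum depletion and 3.5 in GCDC. *Fcgr1* was filled only in GCDC, at 9.1. *Adgre1* had no level on any array. *Csf1r* leaned to GCDC, at 45.1 in serum depletion and 52.2 in GCDC, and *Aif1* leaned to serum depletion, at 91.3 and 62.9. The summed level of the list was 2504 in serum depletion, 3027 in GCDC and 1646 in control. Most of that sum was *Cd14*, and without it the sum was 226, 235 and 177. The part of macrophages in these results was not tested.

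The other members past 2-fold, *Mmp7*, *Mmp10*, *Mmp11* and *Timp3*, were above control in both treatments. *Mmp7*, matrilysin, an epithelial protease of bile ducts, was at 2757 in serum depletion, 752 in GCDC and 191 in control (log2 1.87), and *Mmp11* was at 418, 190 and 65.6 (log2 1.14). *Mmp10* was at 7.4, 3.1 and 1.5 (log2 1.26). The inhibitor *Timp3* was at 2245, 1031 and 486 (log2 1.12), while *Timp1* was at 78.1 in serum depletion and 134 in GCDC (log2 -0.77).

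The secreted signals of senescence were mixed. Of 26 chemokines 4 were more than 2-fold higher in serum depletion, against 2.12% of all genes, and none was more than 2-fold lower. The monocyte attractant *Ccl2* was at 369 in serum depletion, 151 in GCDC and 14.9 in control (log2 1.29), and its relative *Ccl7* was at 32.6 and 13.5 with no level in control (log2 1.27). The neutrophil attractants *Cxcl1* and *Cxcl5* were at 228 and 31.9 in serum depletion, against 93.6 and 9.0 in GCDC and 124 and 24.9 in control (log2 1.28 and 1.83). *Cxcl3*, of the same family, leaned to GCDC within 2-fold, at 75.7 and 146 (log2 -0.95).

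Of 34 cytokines 3 were more than 2-fold higher and 2 more than 2-fold lower in serum depletion, against 2.12% and 2.86% of all genes. *Il11*, an IL-6 family cytokine, was at 314 in serum depletion, 106 in GCDC and 21.2 in control (log2 1.57), *Il24* at 83.9, 29.0 and 29.6 (log2 1.53) and *Csf2* (GM-CSF) at 39.2, 18.2 and 7.4 (log2 1.11). *Il33*, a nuclear alarmin of epithelium, was at 27.7 in serum depletion, 143 in GCDC and 310 in control (log2 -2.37), so that it was below control on both treated arrays and lower in serum depletion. *Il1rn*, the secreted antagonist of the IL-1 receptor, was at 6.4, 15.2 and 79.9 (log2 -1.25). *Il6* was not filled on the serum depletion array and stood at 1.5 in GCDC.

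Of 47 interferon-stimulated genes 1 was more than 2-fold higher in serum depletion and 2 lower, against 2.12% and 2.86% of all genes. The list median was -0.16. *Ifit3* was the higher one, at 306 in serum depletion, 87.1 in GCDC and 7.2 in control (log2 1.81). *Xaf1* and *Ifi27* were at 29.1 and 417 in serum depletion, against 74.4 and 951 in GCDC (log2 -1.35 and -1.19). Of 21 genes of MHC class I and 9 of class II, with medians of -0.14 and 0.03, none was more than 2-fold higher in serum depletion. In each list 1 was more than 2-fold lower. Of all genes 2.12% were higher and 2.86% lower. The lower ones were *H2-K1* and *H2-Ab1*, at 1688 and 22.7 in serum depletion, against 3581 and 52.2 in GCDC (log2 -1.08 and -1.20). With no scaling both were within 2-fold, *H2-K1* at -0.88 and *H2-Ab1* just short of 2-fold, and with normexp *H2-Ab1* was at -0.46. Class I genes resemble each other closely enough that probes may share signal. Of 18 genes that the study singled out as raised on these same arrays, 16 had a probe named in the annotation used here (*Igsf1* through another probe than the study's). Of these 16 genes 6 were more than 2-fold higher in serum depletion than in GCDC and 1 was lower, against 2.12% and 2.86% of all genes. The study's choice of genes is not independent of these values. Besides *Ifit3* and *Ccl2* the higher ones included *Itpka*, a kinase of inositol trisphosphate, at 157, 38.3 and 3.3 (log2 2.04), *Sp5*, a target of Wnt signalling, at 164, 42 and 5.1 (log2 1.96), and *Pik3r6* at 987, 347 and 40.6 (log2 1.51). *Pyy*, a gut peptide hormone, was at 32.5, 13.8 and 1.2 (log2 1.24).

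**Figure D3:**
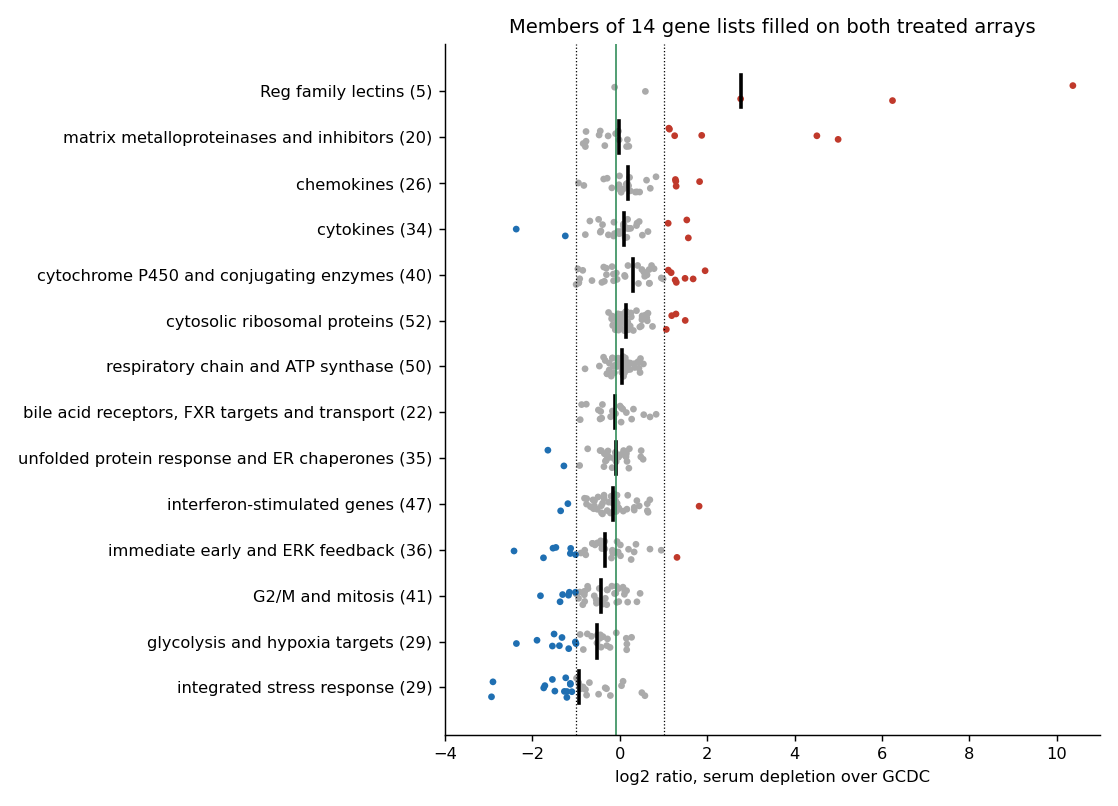
Log2 ratio of serum depletion over GCDC for the members of 14 gene lists filled on both treated arrays, with the number of members in brackets. Each point is a gene, red above and blue below the dotted lines at 2-fold, the black bar is the list median and the green line the median of all probes (-0.08). The integrated stress response has the lowest median (-0.94) and the Reg lectins the highest (2.77).

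Of 40 cytochrome P450 and conjugating enzymes, which modify lipids and foreign compounds, 7 (against 2.12% of all genes) were more than 2-fold higher in serum depletion and none was more than 2-fold lower, with a median of 0.30 (-0.07 to 0.50 under the alternative settings, with 0.04 under normexp and the lowest value at a level of at least 100). *Akr1b8*, an aldo-keto reductase, was at 2710 in serum depletion, 1255 in GCDC and 784 in control (log2 1.11), and *Ugt2b34*, a glucuronosyltransferase, was at 211, 75 and 186 (log2 1.49). *Cyp2a4* was at 12.8, 4.0 and 2.3 (log2 1.68) and *Ces1d*, a carboxylesterase, at 8.9, 2.3 and 6.9 (log2 1.95). Glutathione transferases split: *Gsta3* was at 774 in serum depletion and 246 in GCDC (log2 1.65) and *Gsta2* at 22.4 and 83.8 (log2 -1.90). Such families hold near-identical copies, and their probes may share signal.

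Genes of bile acid sensing and transport made up another list. Of 22 members filled on both arrays none was past 2-fold in either direction, against 2.12% of all genes higher and 2.86% lower. With shares this low, none of 22 is near the share over all genes. The list median was -0.12. *Nr1h4*, the bile acid receptor FXR, was at 25.1 in serum depletion, 25 in GCDC and 27.4 in control, and *Gpbar1*, the membrane receptor TGR5, was at 56.9, 51.3 and 52.6. *Slc10a2*, the apical bile acid carrier, was at 50, 28.1 and 43.1 (log2 0.83). The FXR target *Nr0b2* was near the floor, at 4.2, 5.9 and 8.1, and *Abcb11* had no level on any array.

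Of 52 cytosolic ribosomal proteins 4 were more than 2-fold higher in serum depletion, against 2.12% of all genes, with a median of 0.14. With normexp *Rpl37*, *Rps20* and *Rpl30* fell within 2-fold, at log2 0.63, 0.53 and 0.99. *Rpl27a* was at 1773 in serum depletion and 779 in GCDC (log2 1.19), while *Rpl37* and *Rps20* were past 2-fold at levels of 50.8 and 44.6 in serum depletion, against 18 and 18.3 in GCDC. Ribosomal protein genes have many pseudogene copies, so these probes are uncertain. None of 50 genes of the respiratory chain and ATP synthase and none of 37 collagens, laminins and fibronectin was past 2-fold. Of all genes 2.12% were higher and 2.86% lower.

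*Epcam* and the biliary keratins were bright on both treated arrays. Of 19 cholangiocyte markers 2 were more than 2-fold higher in serum depletion and 2 lower, against 2.12% and 2.86% of all genes. *Epcam* was at 2607 in serum depletion and 2782 in GCDC, and *Krt7* at 19912 and 24866. *Krt19*, the classical biliary keratin, was at 11882 in serum depletion, 27743 in GCDC and 13440 in control (log2 -1.22). *Aqp1*, the water channel of bile ducts, was at 229, 86.4 and 776 (log2 1.41), below control in both treatments and lower in GCDC. *Foxj1*, the regulator of motile cilia, was at 98.4, 16.8 and 20.9 (log2 2.55).

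Markers of hepatocytes ranged widely in level. *Alb* was at 2.3 in serum depletion and 3.4 in GCDC, near the floor, while *Hnf4a*, a nuclear receptor, was at 133 and 109 and *Ass1*, of the urea cycle, at 144 and 160. Of 21 such markers 3 were more than 2-fold higher in serum depletion and 1 lower, against 2.12% and 2.86% of all genes. The 3 included *Ttr*, transthyretin, at 288, 50.4 and 36.9 (log2 2.52), and *Ambp* at 78.7, 21.0 and 35.9 (log2 1.91), while *Arg1*, also of the urea cycle, was at 72.8, 204 and 207 (log2 -1.49). Summed over the 24 listed hepatocyte markers the level was 1036 in serum depletion, 868 in GCDC and 802 in control, and without *Ttr* it was 748, 817 and 765, so the order of the sums rested on that gene. The part of any such cells in the results on liver genes was not tested. The summed levels of 14 endothelial markers were 110 in serum depletion and 122 in GCDC, and those of 19 mesenchymal markers were 248 and 249. *Pecam1* had no level on either treated array. In such bulk RNA a change in the number of cells of a type and a change of RNA per cell cannot be told apart.

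Other genes at the high end came from several functions. *Mup19*, a major urinary protein normally made by liver, was at 225 in serum depletion, 5.3 in GCDC and 6.4 in control (log2 5.41). Its relative *Mup2* was at 70.8 in serum depletion, not filled in GCDC and at 1.5 in control, which put it at least 59.0-fold higher in serum depletion. These genes are near-identical copies, so the probes may report the same transcript. *Fxyd2*, a regulatory subunit of the sodium pump, was at 312, 33.6 and 34.5 (log2 3.21), and *Tfr2*, an iron sensor, at 70.9, 9.8 and 4.5 (log2 2.85). *Tns1*, an adhesion protein, was at 79.1, 8.4 and 1.1 with 1 probe (log2 3.24) and at 160, 63.7 and 53.8 with its second (log2 1.33). *Serpinb11* had a different pattern, at 51.6 in serum depletion, 5.3 in GCDC and 70.7 in control (log2 3.28), so that the GCDC array was the one apart. The rest of the 15 highest were *Igkv4-57*, *Tmem145*, *Igkv4-54*, *Pilrb1* and *Tekt5*, with log2 ratios from 2.54 to 3.06.

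At the low end, *Prap1*, a proline-rich secreted protein of epithelia, was at 821 in serum depletion, 11783 in GCDC and 5794 in control (log2 -3.84), the lowest ratio of all probes. *2210407C18Rik*, an uncharacterised gene, was at 453, 3953 and 2208 (log2 -3.12). *Nt5e* (CD73), which makes adenosine outside the cell, was at 15, 130 and 180 (log2 -3.11), and *Entpd3*, which acts a step earlier on ATP, was at 55.4, 133 and 147 (log2 -1.26). *Bst1* (CD157), an enzyme that splits NAD outside the cell, was at 184, 1061 and 190 (log2 -2.53). *Cd55*, which shields cells from complement, was at 62.5, 292 and 184 (log2 -2.22), and *F3*, tissue factor, at 628, 1727 and 603 (log2 -1.46). *Igfbp3* was at 51.3, 188 and 170 (log2 -1.87). *Scel*, *Rgs16*, *Sdcbp2* and *Adm2* completed the 15 lowest, with log2 ratios from -2.59 to -2.25.

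**Figure D4:**
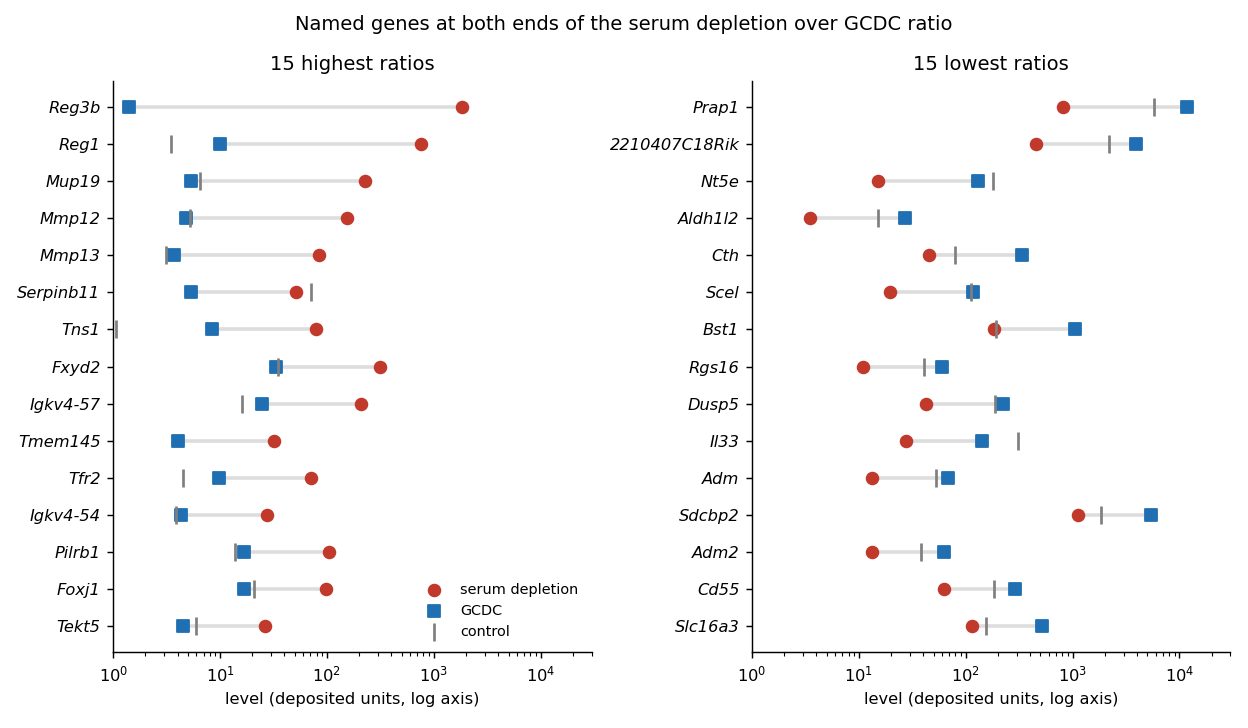
Level (log axis, deposited units) on the serum depletion (red circle), GCDC (blue square) and control (grey bar) arrays of the 15 named genes with the highest and the 15 with the lowest ratio of serum depletion over GCDC. *Reg3b* and *Tmem145* have no control level, the control mark of *Serpinb11* lies beside serum depletion, and that of *Nt5e* lies beside GCDC.

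The control array, left out of the ratio, showed which treatment stood apart. Of the 429 higher probes 403 were filled on all 3 arrays. In 179 of them (44.4%) only serum depletion was more than 2-fold from control, as for *Mup19*, *Mmp12*, *Fxyd2* and *Foxj1*. In 61 (15.1%) only GCDC was more than 2-fold from control, as for *Serpinb11* and *Cxcl5*. Both were above control in 58 and below it in 8, 2 lay on opposite sides, and in 95 neither was more than 2-fold away. Of the 566 lower probes 561 were filled on all 3. In 174 (31.0%) only serum depletion was away from control, as for *Nt5e*, *Dusp5*, *Adm* and *Scel*, and in 129 (23%) only GCDC was, as for *Cth*, *Bst1*, *Sdcbp2* and *Slc16a3*. Both were below control in 88 and above it in 17, 1 lay on opposite sides, and in 152 neither was more than 2-fold away. Both ratios share the control array.

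**Figure D5:**
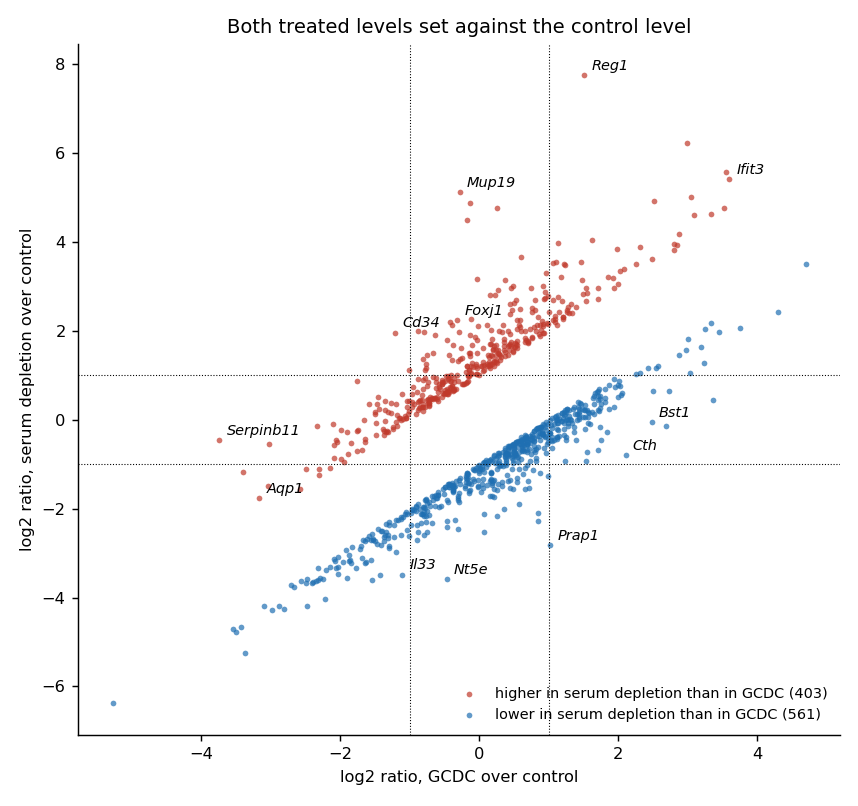
Log2 ratio of serum depletion over control (vertical) against that of GCDC over control (horizontal) for the probes more than 2-fold apart between the treatments and filled on all 3 arrays, 403 higher (red) and 561 lower (blue) in serum depletion. Dotted lines mark 2-fold from control, and the empty diagonal band is set by the choice of probes.

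Probes filled on 1 treated array only were mostly dim. Their median level was 1.9 for the 464 filled in serum depletion and 1.8 for the 890 filled in GCDC, and a bound of at least 2-fold was reached by 118 in serum depletion and 113 in GCDC. Each bound sets the level against the higher of the lowest level filled on the other array (1.2 in GCDC, 1.4 in serum depletion) and the signal the probe had there. After *Mup2*, the highest levels filled in serum depletion only were 12.1 for *9630028B13Rik*, 11 for *Ranbp3l* and 10.1 for *Tbxas1*, the thromboxane synthase, which were at least 10.1-fold, 9.17-fold and 8.42-fold higher. *Trp73*, a p53 relative, and *Lgr5*, a stem cell receptor for R-spondins, were at 8.0 and 7.5, at least 6.67-fold and 6.25-fold higher. *Mov10l1* was at 8.0 and *Tex43* at 8.7.

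Filled in GCDC only were *Ptchd1* at 31.6, *Defb37*, a defensin, at 14.7, and *Hamp*, the iron hormone hepcidin, at 13.6, which were at least 22.6-fold, 10.5-fold and 9.71-fold lower in serum depletion. *Tcerg1l* was at 11.8, *F2rl2* at 10.8, *Fcgr1* at 9.1 and *Olfr1336* at 7.8. *Fst*, the activin antagonist follistatin, was at 10.0 in GCDC and 9.0 in control, and at least 7.14-fold lower in serum depletion.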

How the data were processed

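Total RNA of cultured BECs was labelled with Cy5 and hybridised to 1-colour Toray 3D-Gene mouse arrays, with 1 array for a condition and the RNA of 2 separate experiments mixed on it. The authors deposited normalized intensity values: the mean of the blank spots within a central range (2463 or 2464 of 2736 blanks) was subtracted from each spot, spots within 2 SD of the blanks were left empty, and the array median was scaled to 25. The deposited scanner intensity gave the same levels when this was recomputed (median difference at most 0.03), and it was used for the alternatives. Filled gene probes numbered 20215 in serum depletion, 20641 in GCDC and 20947 in control, and the median signal above the blanks was 29.8, 25.9 and 40.6 scanner units. The number of arrays, 1 per condition, limits the precision.

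From these values the log2 ratio of serum depletion over GCDC was computed with pandas 2.3.3 and numpy 2.4.6, and alternatives with limma 3.58.1 in R 4.3.3. Scripts were tested on simulated data. A gene with several probes was represented by its brightest one on average. Genes were named by rule: the 15 highest and 15 lowest ratios with a level of at least 25 on the higher array, the 8 highest levels with a bound in each direction, up to 4 members of each list past 2-fold, and defining members by value. Other genes named were chosen after their values were seen. Members and lists were chosen with earlier results of these data known. Promoter windows came from RefSeq (GRCm38.p6).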

Additional observations from a re-analysis of the deposited data

Results flagged for a closer look

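Among the probes more than 2-fold apart between the treatments and filled on all 3 arrays, 3 genes had the treated arrays on opposite sides of control, each more than 2-fold away from it. The difference was not tested, since each condition had 1 array. *Cd34*, a surface sialomucin, was at 15.3 in serum depletion, 1.7 in GCDC and 3.9 in control (log2 3.17), with the GCDC level close to the floor. *Prap1* was at 821 in serum depletion, 11783 in GCDC and 5794 in control (log2 -3.84), the brightest of the 3. *Mrgprb2*, a receptor known from mast cells, was at 11.3, 2.6 and 5.2 (log2 2.12).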

How the results depend on the processing

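Against 429 probes higher, 566 lower and a higher share of 43.1%, counts moved by more than 1.5 times under some settings. No scaling gave 746 higher and 313 lower (70.4%) and a median log2 ratio of 0.12 in place of -0.08. Normexp background correction, with an offset of 50 that shrinks dim ratios and then quantile normalization, gave 69 and 80 (46.3%). A level of at least 25 left 10646 probes and gave 183 and 289 (38.8%), or 1.72% and 2.71% of those probes. A level of at least 100 left 6051 and gave 84 and 173 (32.7%), or 1.39% and 2.86% of those. In the main comparison of 19751 probes these shares were 2.17% and 2.87%. No filter on validity compared 22000 probes and gave 1008 and 1262. Thresholds of 1.5-fold, 4-fold and 8-fold gave 1378 and 2390 (36.6%), 63 and 30 (67.7%), and 13 and 3 (81.2%). The higher share was also 54.6% with medians over shared probes, 57.3% with equal 75th percentiles, 53% with quantile normalization and 54.3% with cyclic loess. Of 130 named genes past 2-fold none changed sign; normexp kept 55 past 2-fold and the other scalings 109 to 122. List medians moved by under 0.1 in 433 values and by more in 180. The recomputation without rounding was chosen after seeing the data. The causes were not tested. No paired analysis was possible because each condition had 1 array, and for the same reason no array could be left out. Low signal limits the dim genes.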

Other observations

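Several gene families stood out after their values were seen, and they are given as values only. Of all probes compared 2.17% were more than 2-fold higher in serum depletion and 2.87% more than 2-fold lower. Of 8 probes for *Igkv4* segments, variable regions of the antibody kappa light chain, 7 were filled on both treated arrays and all 7 were more than 2-fold higher in serum depletion, with a median log2 ratio of 2.21. Their summed level was 772 in serum depletion, 147 in GCDC and 118 in control. Among them *Igkv4-72* was at 257 in serum depletion, 44.7 in GCDC and 32 in control. Of 17 probes for other *Igkv* segments 11 were filled on both and none was past 2-fold. The B cell gene *Cd79a* was at 15.9 in serum depletion, 6.7 in GCDC and 5.9 in control. The other lymphocyte markers filled on both treated arrays were within 2-fold and leaned both ways. The summed level of 15 lymphocyte markers was 87.1, 74.5 and 64.1, and without *Cd79a* it was 71.2, 67.8 and 58.25. The part of such cells in the result was not tested. The segments are alike in sequence, so 1 transcript may give signal on several probes.

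Of 10 probes for *Klra* receptors, which natural killer cells use to sense class I molecules, 8 were filled on both treated arrays. Of these 5 were more than 2-fold lower in serum depletion, against 2.87% of all probes, and none was higher. *Klra4* was at 208 in serum depletion, 540 in GCDC and 199 in control, and *Klra14-ps* at 347, 785 and 363. These copies are also alike in sequence.

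Of 6 probes for *Cyp4a* fatty acid hydroxylases 4 were filled on both. Of these 3 were more than 2-fold higher in serum depletion, against 2.17% of all probes. Of 7 probes for *Hsd3b* genes, all filled on both, 2 were more than 2-fold higher in serum depletion, against 2.17% of all probes. None was more than 2-fold lower, and the family's median log2 ratio was 0.43. The higher ones included *Hsd3b2*, an enzyme of steroid synthesis, at 106 in serum depletion, 19.5 in GCDC and 9.0 in control. Of 12 probes for *Lce1* late envelope proteins of stratified epithelium 11 were filled on both. Of these 2 were more than 2-fold lower in serum depletion and none was more than 2-fold higher, against 2.87% and 2.17% of all probes. The 2 were *Lce1h* and *Lce1i*, at 107 and 133 in serum depletion, against 418 and 431 in GCDC and 44.4 and 31.8 in control, while *Lce1f*, the brightest, was at 851 in serum depletion and 588 in GCDC.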
